A study of Rattus norvegicus with 250 samples.

Results

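The mitochondrial genome of the rat encodes subunits of the respiratory chain, and 10 of its genes are described here across the hippocampi of F2 rats. They were taken as the 10 Ensembl identifiers of a fixed list, and all 10 were found among the 32883 rows of the deposited count table. Each row had at least 1294 reads in each library analyzed, and all 10 were among the 19448 genes that were detected (1 read or more) in 25% of rats and entered the fits. The list names the rows, in its own order, after the mitochondrial genes Mt-co1, Mt-co2, Mt-co3, Mt-atp6, Mt-cyb, Mt-nd1, Mt-nd2, Mt-nd4, Mt-nd5 and Mt-nd6. No table used here pairs these identifiers with symbols, so the symbols and the roles given beside them rest on that list.

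Mitochondria keep a small circular genome that passes to offspring from the mother and is present in many copies in each cell. Its protein-coding genes are read out as long transcripts from both strands, which are cut into single messages, and almost all of these genes lie on the same strand. Their products sit in the inner membrane and act together with far more numerous subunits that are encoded in the nucleus, translated in the cytosol and imported. Complex I passes electrons from NADH to ubiquinone, complex III passes them on to cytochrome c, complex IV hands them to oxygen, and complex V uses the resulting proton gradient to make ATP. Neurons spend much of this ATP on ion pumping and synaptic transmission.

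All libraries came from untreated F2 rats of an intercross between lines bred as High Responders (bHR) and Low Responders (bLR) to an unfamiliar enclosure. Punches of frozen hippocampus, from the left or the right side, gave 1 polyA library per rat. Of the 250 libraries, 5 labelled as having failed quality control were set aside, which left 122 males that died at 113 to 123 days of age and 123 females that died at 124 to 132 days. The rats belonged to 12 intercross families of 13 to 27 rats, and the labels give the family but not the mother or litter. A Pavlovian Conditioned Approach (PavCA) task was taken as given to the 208 rats with any PavCA score in the labels. The other 37 were taken as untrained, and 205 of the 208 had a PavCA Index. No date of death (0 of 9) was shared by males and females, so sex cannot be told apart from date of death or age. The labels give 3 runs of consecutive library numbers, which were taken as sequencing batches of 95, 94 and 56 rats. Total counts ranged from about 17920000 to 31490000 with a median of 21610000. Of the 19 cell type markers listed for the hippocampus only 1 could be matched to an identifier, Slc17a7, the vesicular glutamate transporter of excitatory neurons, which had values in counts-per-million (CPM) units from 446 to 2469 with a median of 1619.

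The levels of the rows are given as CPM, the reads of a row scaled to the same total for every library. The table holds no gene lengths, so a higher CPM of one row than of another is a share of reads and not a comparison of transcript levels. Only reads with a unique place in the genome were counted, and mammalian nuclear genomes carry copies of mitochondrial DNA. How many reads each row lost to such copies was not tested.

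Among the complex I subunits, ENSRNOG00000030644 (listed as Mt-nd1, which forms part of the membrane arm near the quinone site) had a lowest CPM of 1100, a median of 2709 and a highest of 5625 over the 245 rats. ENSRNOG00000031033 (Mt-nd2, a subunit of the proton-pumping membrane arm) ranged from 1349 to 6882 around a median of 3365. ENSRNOG00000029971 (Mt-nd5, which lies at the far end of that arm) ranged from 618 to 4077 around 1807. Each of these rows differed several-fold between the lowest and the highest rat. ENSRNOG00000029707 (Mt-nd4, another proton-pumping subunit) held far fewer reads, with values from 70.0 to 536 and a median of 241. ENSRNOG00000029042 (Mt-nd6, the member that lies on the opposite strand from the others) was the lowest of the 10, from 66.1 to 159 with a median of 108.

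The complex III row, ENSRNOG00000031766 (Mt-cyb, cytochrome b, the only mitochondrially encoded subunit of that complex), ranged from 1801 to 7972 CPM with a median of 4204. Of the complex IV rows, Mt-co1 and Mt-co3 had the highest medians of the 10 rows, while Mt-co2 lay below the rows of complexes III and V. ENSRNOG00000034234 (Mt-co1, the catalytic subunit) ranged from 5455 to 16880 CPM around a median of 10430. ENSRNOG00000030371 (Mt-co2, which takes electrons from cytochrome c) ranged from 1725 to 5791 around 3747, and ENSRNOG00000030700 (Mt-co3) from 2629 to 8645 around 5470. The complex V row, ENSRNOG00000031979 (Mt-atp6, part of the proton channel of ATP synthase), ranged from 2014 to 8234 around 4491. The ranges of males and females overlapped in every row, and for Mt-nd6 they were 66.1 to 138 and 71.9 to 159 CPM.

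**Figure D1:**
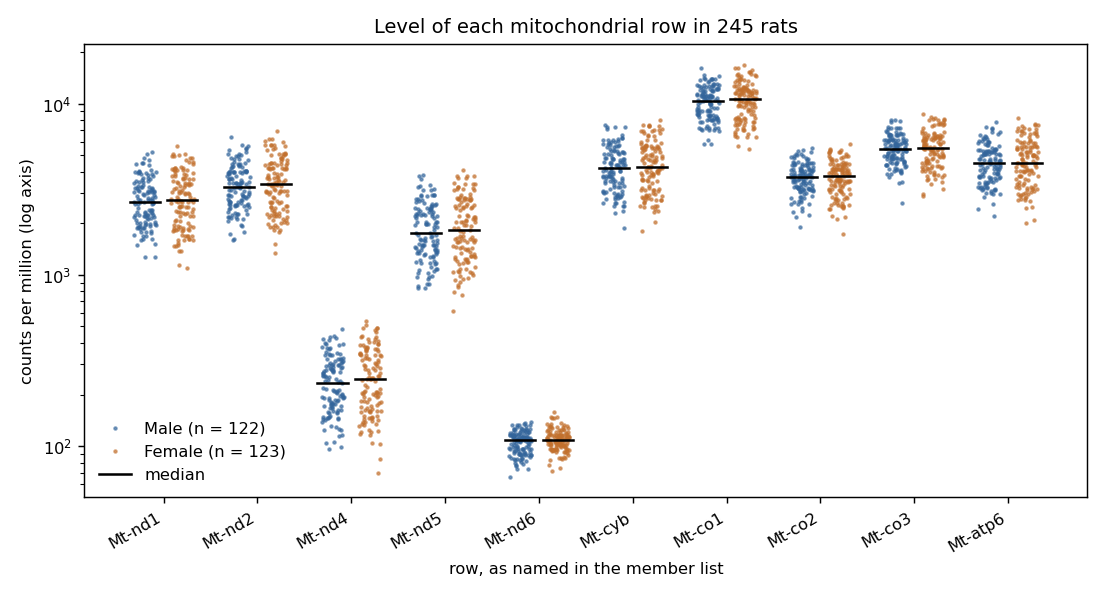
CPM of each mitochondrial row (log axis) in 122 males and 123 females, with 1 point per rat and a black bar at the median of each sex. The rows are ordered by complex, and the points of the sexes overlap in each row, with medians of 10390 and 10670 for Mt-co1 in males and females.

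With library sizes scaled by TMM, the trimmed mean of M-values method, the SD of log2 CPM across rats was 0.22 for Mt-nd6, 0.28 for Mt-co2 and Mt-co3, 0.31 for Mt-co1, 0.38 for Mt-atp6, 0.42 for Mt-cyb, 0.44 for Mt-nd2, 0.46 for Mt-nd1, 0.55 for Mt-nd5 and 0.57 for Mt-nd4. Of all genes tested, 14.1% had a lower SD than Mt-nd6 and 57.0% had a lower SD than Mt-nd4. Setting Mt-nd6 aside, the rows varied together: over the 36 pairs of the other 9 rows Pearson's r of log2 CPM was between 0.81 and 0.99, with a median of 0.94. The pairs of Mt-nd6 with each of those 9 rows had r between 0.22 and 0.38. These are correlations across 245 libraries that share a scaling and a polyA selection, and they are given as a description.

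The genes outside the list that were most like it were sought by the correlation of log2 CPM with the mean of the 10 rows over the same 245 libraries. The highest r were those of ENSRNOG00000033299 (0.98, with a median of 794 CPM) and ENSRNOG00000031053 (0.96, with a median of 301 CPM). The lowest were those of ENSRNOG00000017612 (-0.89) and ENSRNOG00000006987 (-0.89). No symbol was paired with these 4 identifiers here, so whether any of them is a mitochondrial gene outside the list was not tested. All 4 also followed the intergenic percentage described next, with r of 0.95, 0.96, -0.94 and -0.93.

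Together the 10 rows took between 1.75% and 6.43% of all counts of a library, with a median of 3.67%. Within that sum, the median share was 27.8% for Mt-co1, 14.9% for Mt-co3, 12.5% for Mt-atp6, 11.7% for Mt-cyb, 10.1% for Mt-co2, 9.27% for Mt-nd2, 7.43% for Mt-nd1, 5.12% for Mt-nd5, 0.660% for Mt-nd4 and 0.283% for Mt-nd6. The summed share was followed most closely by the intergenic percentage of a library, the share of aligned bases outside annotated genes. That label was damaged in the record and was rebuilt as what remained after the mRNA, intronic and ribosomal fractions, and it ran from 9.91% to 17.3%. Pearson's r between the summed share and the intergenic percentage was 0.963 over the 245 libraries, and 0.964, 0.971 and 0.964 within batches 1, 2 and 3. The share rose by 0.559 percentage points for each point of intergenic bases, and by 0.527, 0.550 and 0.572 within the batches. Both values come from the same reads, and whether reads of the mitochondrial genome were counted as intergenic when the label was made was not tested.

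**Figure D2:**
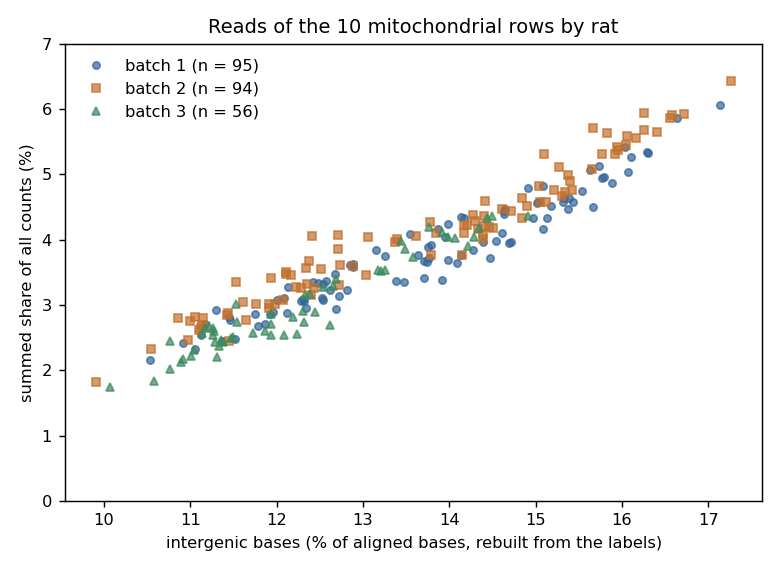
Summed share of all counts taken by the 10 mitochondrial rows (vertical axis, percent) against the rebuilt intergenic percentage (horizontal axis) in 245 rats, with 1 point per rat and a marker for each batch. The points rise with the intergenic percentage in each of the 3 batches, and all 3 batches reach the lower end. The batches do not lie on a single line: between about 12.1% and 12.5%, most points of batch 3 lie below those of batch 2. Batch 3 has the lowest median share, 2.72%.

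Other RNA measures were compared with the summed share too. Since the intergenic percentage was rebuilt from the mRNA, intronic and rRNA percentages, these are not separate from it. This holds most for the mRNA percentage, the largest part, whose r largely restates the r of 0.963. Its r was -0.932 with the mRNA percentage, -0.746 with the percentage of ribosomal RNA (rRNA) bases, -0.721 with the median coefficient of variation of coverage, 0.687 with the RNA concentration, 0.516 with the intronic percentage, 0.145 with the RNA integrity number (RIN) and -0.220 with total counts. Within batches 1, 2 and 3 the r was -0.957, -0.965 and -0.846 with the mRNA percentage, -0.667, -0.726 and -0.744 with the rRNA percentage, -0.692, -0.751 and -0.770 with the coverage measure and 0.481, 0.708 and 0.742 with the concentration. It was 0.434, 0.703 and 0.00046 with the intronic percentage, 0.203, 0.556 and -0.342 with RIN and -0.124, -0.057 and -0.066 with total counts, so that the first was near 0 in batch 3 and RIN changed sign there. Mt-nd6 stood apart here as well. Its log2 CPM had r of 0.190 with the intergenic percentage, where the other 9 rows had r between 0.854 and 0.967, and 0.035 with the RNA concentration, where the others had r between 0.580 and 0.654.

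In the limma-voom model of the study's methods, with LocoScore, sex, rRNA percentage, intergenic percentage, dissector, PavCA experience and batch, each row had a slope on the intergenic percentage. The slopes, in log2 CPM per percentage point, were 0.36 ± 0.009 (SE) for Mt-nd4, 0.36 ± 0.008 for Mt-nd5, 0.29 ± 0.008 for Mt-nd1, 0.28 ± 0.008 for Mt-nd2, 0.27 ± 0.007 for Mt-cyb, 0.25 ± 0.006 for Mt-atp6, 0.20 ± 0.007 for Mt-co1, 0.18 ± 0.007 for Mt-co3, 0.17 ± 0.009 for Mt-co2 and 0.12 ± 0.011 for Mt-nd6. All 10 rows rose at a false discovery rate (FDR) of 0.10 by limma-voom, and all 10 did so with dissection day or family added and in batches 1 and 2 alone, while 9 did in batch 3 alone. The fold change per point was between 1.09 and 1.28. Of the 19448 genes, 77.3% were called in either direction, 38.9% upward and 38.4% downward, so that a call alone does not set the rows apart. The 6 smallest p-values of all genes belonged to Mt-nd5, Mt-cyb, Mt-nd4, Mt-atp6, Mt-nd2 and Mt-nd1, with adjusted p by limma-voom from 1.92e-115 to 3.74e-96. This did not hold for all rows, since by the same p-values Mt-co1 ranked 15, Mt-co3 49, Mt-co2 957 and Mt-nd6 5952. Slopes also differed between complexes. Those of the complex I rows on the main coding strand, Mt-cyb and Mt-atp6 were steeper than those of the 3 complex IV rows. Their intervals did not overlap with those of the complex IV rows.

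The subunits encoded in the nucleus went the other way. Of the 83 nuclear-encoded subunits listed, 17 could be matched to identifiers, and of these 16 fell with the intergenic percentage and 1 rose at an FDR of 0.10 by limma-voom, with a median slope of -0.16 against a median of -0.00064 over all genes. The falls with the smallest p-values were those of Uqcrc2 (complex III core protein, -0.20 ± 0.008 SE, adjusted p = 3.21e-63) and Ndufc2 (complex I, -0.24 ± 0.011, adjusted p = 5.07e-60), and the slopes of all 17 ran from -0.49 to 0.0079. The subunit that rose was Sdha (the catalytic subunit of complex II, 0.0079 ± 0.0040, adjusted p = 0.067). Slc17a7 rose with the intergenic percentage (0.18 ± 0.010), and its part in the result was not tested. The match depended on symbols that the study's tables happened to hold, and covers a minority of the list.

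The rRNA percentage had a median of 1.04% and ran from 0.480% to 2.88%. In the same fit all 10 rows rose with it by limma-voom, where 68.8% of genes were called in either direction and 32.8% upward. Per 0.1 percentage point the slopes were between 0.014 and 0.022 log2 for the other 9 rows and 0.043 ± 0.005 (SE) for Mt-nd6, with adjusted p from 1.49e-16 to 0.00033. These directions hung on the scaling and on the covariates: with total counts only, 1 row rose and 2 fell, with slopes from -0.0067 to 0.022, and without the intergenic percentage in the model 9 rows fell and Mt-nd6 alone rose, with slopes from -0.088 to 0.0087. Among the nuclear-encoded subunits 15 of 17 rose and 1 fell, with a median slope of 0.054. The rises with the smallest p-values were those of Ndufab1 (the acyl carrier protein of complex I, 0.082 ± 0.003 SE) and Cox7c (complex IV, 0.11 ± 0.004), and the one that fell was Sdha (-0.012 ± 0.002).

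RIN, a score of RNA integrity, ran from 8.40 to 9.70 with a median of 9.00. With RIN added to the model, 5 of the 10 rows were called by limma-voom, where 47.3% of genes were. Mt-co2 (-0.18 ± 0.042 SE per unit of RIN, adjusted p = 0.00012), Mt-co3 (-0.17 ± 0.034, adjusted p = 1.13e-05) and Mt-atp6 (-0.11 ± 0.031, adjusted p = 0.0033) fell. Mt-nd4 (0.13 ± 0.043, adjusted p = 0.0087) and Mt-nd5 (0.19 ± 0.038, adjusted p = 7.08e-06) rose. The other 5 rows had slopes between -0.0095 and 0.0042. With total counts only, 1 row rose and 6 fell, without the intergenic percentage 9 rose and none fell, and the batches taken alone gave 1, 0 and 3 calls, all downward. Of the nuclear-encoded subunits 7 of 17 fell and none rose, led by Cox8a (complex IV, -0.17 ± 0.037) and Ndufv1 (complex I, -0.13 ± 0.032).

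**Figure D3:**
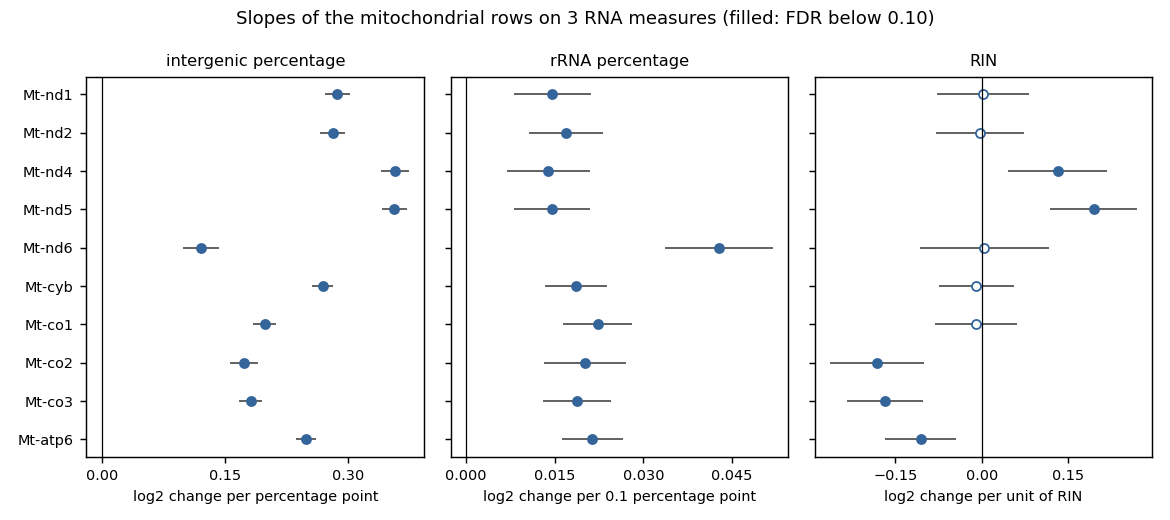
Slope of log2 CPM of each mitochondrial row on the intergenic percentage, the rRNA percentage and RIN (horizontal axes, log2 per unit named) in 245 rats, with bars for the 95% interval of the slope and filled points for an FDR below 0.10 by limma-voom. All slopes on the first measure are above 0, from 0.12 for Mt-nd6 to 0.36 for Mt-nd4, while those on RIN lie on both sides of 0.

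The RNA concentration had a slope that passed in 0 of the 10 rows by limma-voom and 0 by edgeR once the intergenic percentage was in the model, where 16.5% of genes passed. At an unadjusted p under 0.05 there was 1 row, Mt-nd2 (0.034 ± 0.017 SE per 100 units, adjusted p = 0.20). Without the intergenic percentage 9 rows rose, with slopes between 0.044 and 0.20 over the 10 rows. Of the nuclear-encoded subunits 1 of 17 rose and 6 fell.

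Over all batches together, rats handled by dissector One had a higher median share of mitochondrial reads than those handled by the other dissector. The summed share had a median of 4.33% (from 2.44% to 6.43%) in the 80 rats of dissector One and of 3.27% (from 1.75% to 6.07%) in the 165 of the other dissector. Within batch 1 it ran from 2.44% to 5.13% for dissector One and from 2.16% to 6.07% for the other. The highest rats of that batch were thus of the other dissector. In batch 2 the share ran from 3.01% to 6.43% for dissector One and from 1.82% to 5.93% for the other. In batch 3 it ran from 3.17% to 4.37% for dissector One and from 1.75% to 3.99% for the other. The lowest rats of batches 2 and 3 were thus of the other dissector and the highest of dissector One. No medians were taken by dissector within batches. For Mt-nd5 the median CPM was 2430 and 1497, while for Mt-nd6 it was 109 and 108. The intergenic percentage differed in the same direction, with medians of 14.5% and 12.3%, and so did the RNA concentration, with medians of 234 and 114 label units. With the intergenic percentage in the model, 0 of 10 rows differed between dissectors by limma-voom and 0 by edgeR, and 1 did by DESeq2, while 14.9% of genes were called. The differences (the other dissector minus One) were between -0.0078 and 0.069 log2, and the largest, that of Mt-nd6, had an SE of 0.030 and an adjusted p of 0.12. Without that percentage 9 rows were lower in rats of the other dissector, with differences from -0.23 to -0.0063. Of the nuclear-encoded subunits 1 of 17 was higher and 1 lower.

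The sequencing batches differed in their mitochondrial reads. The summed share had medians of 3.75%, 4.08% and 2.72% in batches 1, 2 and 3, with ranges of 2.16% to 6.07%, 1.82% to 6.43% and 1.75% to 4.37%. The intergenic percentage had medians of 13.8%, 14.0% and 12.0% there, and the RNA concentration medians of 130, 223 and 76.4 label units. By the moderated F-test of limma-voom all 10 rows differed between batches, with adjusted p from 3.23e-14 for Mt-cyb to 0.00085 for Mt-nd4, where 56.7% of genes did. Against batch 1, the fitted difference of batch 2 was between -0.0059 (Mt-nd4) and 0.22 log2 (Mt-nd6), and that of batch 3 was between -0.096 (Mt-co1) and 0.15 (Mt-nd5). The order of the batches was not shared by the rows once the covariates were in: Mt-co1 was lowest in batch 3, and Mt-nd5 highest. Batches are not balanced over dissection days, and with the day added 6 of 10 rows differed. All 17 nuclear-encoded subunits differed between batches.

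Families differed in their mitochondrial reads as well. The median summed share ran from 2.56% in family 12 (from 2.18% to 3.17%, 13 rats) to 4.46% in family 2 (from 2.01% to 5.93%, 20 rats). The highest rat of family 12 was below the median of 10 of the other 11 families, and the remaining families overlapped broadly. These families also had the lowest and the highest median intergenic percentage, 11.7% and 14.5%, and the lowest and the highest median RNA concentration, 50.2 and 213 label units. With these covariates except concentration in the model, 9 of 10 rows differed between families by the moderated F-test of limma-voom, where 56.3% of genes did. The exception was Mt-nd4 (adjusted p = 0.21), and the smallest adjusted p was 6.23e-06 for Mt-nd2. The fitted family values of Mt-nd2, as differences from the mean of the 12 families, ran from -0.11 log2 in family 6 to 0.14 in family 10. Those of Mt-co1 ran from -0.11 in family 12 to 0.093 in family 7. Of the nuclear-encoded subunits 14 of 17 differed between families. In males alone all 10 rows differed and in females alone 3, and the batches taken alone gave 6, 1 and 0 rows.

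In the make-up of the mitochondrial reads, some rats of families 6, 7 and 9 lay outside the range of the other families. The log2 ratio of Mt-co1 to Mt-co3 reads was between 0.70 and 1.15 in the 179 rats of the other 9 families, with a median of 0.88. In families 6, 7 and 9 it reached 1.24, 1.32 and 1.28, and 1 of 19, 8 of 21 and 5 of 26 rats lay above the highest rat of the other families. These 14 rats were 7 males and 7 females, 8 in batch 1, 6 in batch 2 and 0 in batch 3. The limit was set by a rat of family 4, at 1.146, and family 1 reached 1.135. Some of the family 7 rats counted lay just above it, at 1.149, 1.151, 1.153 and 1.163. Family 9 also held the lowest ratio of the 245 rats, 0.667, so the families were not separated as groups. The share of Mt-co1 within the 10 rows reached 35.5%, 36.6% and 36.2% in these families and at most 31.7% in any other. The ratio of Mt-co2 to Mt-co3 reads gave a like picture, with 4, 7 and 6 rats above the highest rat of the other 9 families. The ratio and the 3 families were singled out after all 45 pairs of rows had been looked at, and no test was made. Over the 245 rats the ratio of Mt-co1 to Mt-co3 had r of 0.241 with the intergenic percentage, -0.150 with the rRNA percentage and 0.287 with RIN, and what part these have in it was not tested. Without families 6, 7 and 9, 9 of the rows still differed between families, and 1 row rose and 4 fell with RIN.

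**Figure D4:**
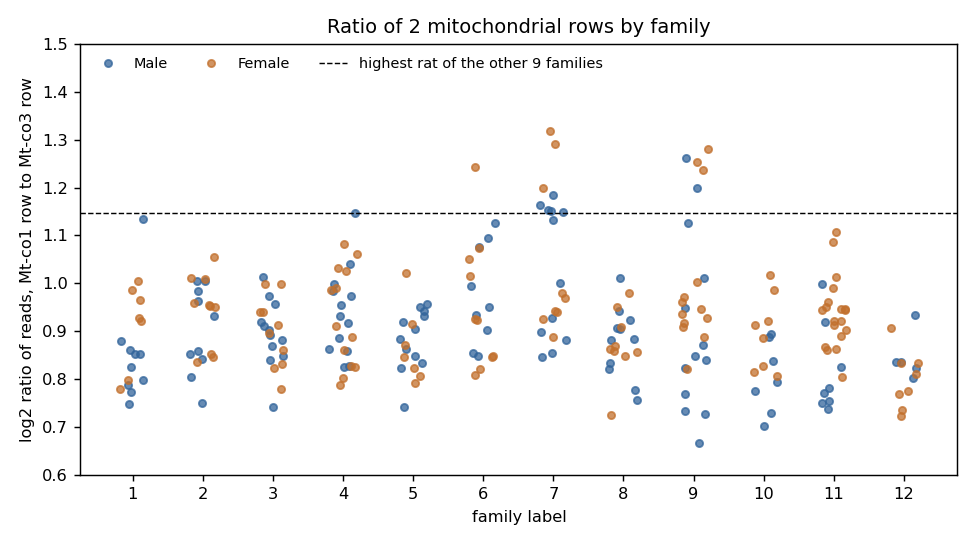
Log2 ratio of the reads of the Mt-co1 row to those of the Mt-co3 row (vertical axis) in each of the 12 families (horizontal axis), with 1 point per rat, colored by sex. The dashed line marks the highest rat outside families 6, 7 and 9, at 1.15, and 14 rats of those families lie above it.

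The behavioral scores, which the study compared with expression across the F2 rats, had no detected relation to any of the rows. LocoScore counts beam breaks in an unfamiliar enclosure and ran from 40 to 1461 with a median of 475. By limma-voom 0 of 10 rows passed, also 0 at an unadjusted p under 0.05, 0 by edgeR and 0 by DESeq2, and 0.0103% of genes passed. The slopes per 100 beam breaks ran from -0.0038 (Mt-co1, p = 0.11 unadjusted and adjusted p = 0.998 by limma-voom) to 0.0020 (Mt-nd1), and the 95% intervals of all 10 lay between -0.0086 and 0.0078 log2. The slopes were of both signs, 3 above and 7 below 0. The summed share had r of -0.092 with LocoScore.

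On the elevated plus maze (EPM), a test of exploration in which more time on the open arms is read as lower anxiety, distance, immobility and open arm time were scored. For distance, in the 244 rats at or under 5000 cm, 0 of 10 rows passed by limma-voom, 0 at an unadjusted p under 0.05 and 0 by edgeR, with slopes from -0.00064 to 0.0032 log2 per 100 cm and intervals between -0.0056 and 0.0068, and 0% of genes passed. For time immobile, 0 of 10 rows passed by limma-voom, 0 at an unadjusted p under 0.05 and 0 by edgeR, with intervals between -0.011 and 0.016 per 10 s, and 0% of genes passed. For the open arms the same counts were 0 of 10, 0 and 0, with intervals between -0.023 and 0.027 per 10 percentage points and 0% of genes. The PavCA Index runs from goal-tracking to sign-tracking and was given for 205 rats. Its slopes ran from -0.017 (Mt-co1) to 0.028 (Mt-nd1) per index unit with intervals between -0.055 and 0.061, and 0 of 10 rows passed by limma-voom, 0 at an unadjusted p under 0.05 and 0 by edgeR, where 0.00514% of genes passed. Without the intergenic percentage these slopes were between 0.022 and 0.095, 4 rows had an unadjusted p under 0.05 and 0 passed. Of the 17 nuclear-encoded subunits, 0 passed for any of the 5 scores.

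**Figure D5:**
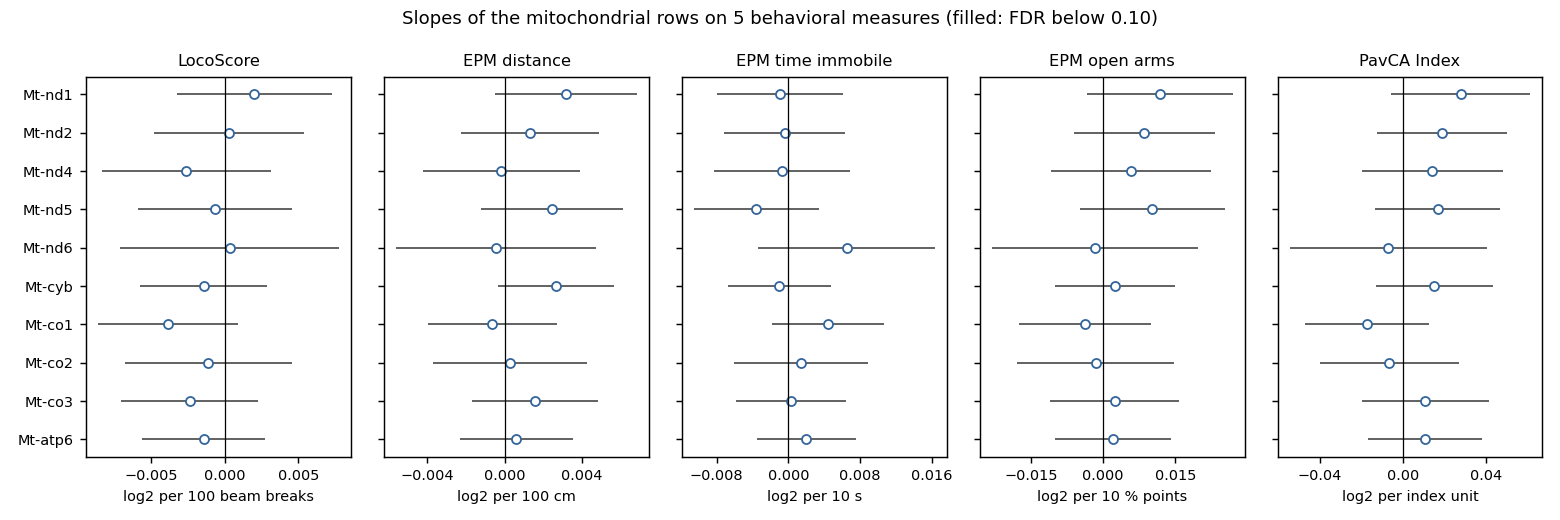
Slope of log2 CPM of each mitochondrial row on 5 behavioral scores (horizontal axes, log2 per unit named), with bars for the 95% interval of the slope and filled points for an FDR below 0.10 by limma-voom. There are no filled points, and each bar crosses 0, for example Mt-co1 on LocoScore at -0.0038.

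Whether the slope on LocoScore differed between the sexes was fitted as an interaction. By limma-voom 0 of 10 rows passed and 0 by edgeR, while 0.329% of genes did. At an unadjusted p under 0.05 there was 1 row, Mt-co3, whose slope was lower in females by -0.012 ± 0.0047 (SE) per 100 beam breaks (adjusted p = 0.18). By sex, the summed share had a median of 3.72% (from 1.75% to 6.43%) in females and 3.64% (from 1.83% to 6.07%) in males. In the model 0 of 10 rows differed between the sexes by limma-voom, also 0 at an unadjusted p under 0.05, 0 by edgeR and 0 by DESeq2, where 9.08% of genes did. The differences (female minus male) ran from -0.0066 (Mt-co2) to 0.028 (Mt-co1), with intervals between -0.041 and 0.071 log2. Since males and females shared no date of death, these values hold for sex and date together. Without the intergenic percentage 9 rows were higher in females, with differences between 0.066 and 0.18. The left and the right hippocampus had median shares of 3.72% and 3.57%, and 0 of 10 rows differed between them by limma-voom, 0 at an unadjusted p under 0.05 and 0 by edgeR, where 0% of genes did. Their differences had intervals between -0.047 and 0.054 log2. Of the 17 nuclear-encoded subunits, 0 passed for sex, for side or for the interaction.

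Rats with PavCA experience had, before any adjustment, slightly more mitochondrial reads: the summed share had a median of 3.74% (from 1.75% to 6.43%) in the 208 trained rats and 3.29% (from 2.18% to 4.58%) in the 37 untrained rats. Their intergenic percentages were 13.5% and 12.6% in the median. With the covariates in the model, 2 of 10 rows were lower in trained rats by limma-voom, where 9.19% of genes were called. They were ENSRNOG00000030700 (Mt-co3, -0.093 ± 0.025 SE, adjusted p = 0.010) and ENSRNOG00000031979 (Mt-atp6, -0.066 ± 0.022, adjusted p = 0.051), a fold change of 0.938 for the former. With sex as the only covariate both differences were of the other sign, at 0.064 and 0.12 log2. Within batches 1, 2 and 3 the difference was -0.022, 0.100 and -0.099 for Mt-co3 and 0.035, 0.015 and -0.074 for Mt-atp6, and neither row passed in any batch. Trained and untrained rats shared 3 of 9 dates of death, and in the 108 trained and 15 untrained rats of those dates, with the date in the model, the differences were -0.013 ± 0.042 and -0.012 ± 0.037 and 0 of 10 rows passed (0 at an unadjusted p under 0.05). That comparison was added after the values had been seen. Slc17a7 was lower in trained rats too (-0.16 ± 0.037, adjusted p = 0.0034 by limma-voom), and its part in the result was not tested. At an FDR of 0.10 by limma-voom Slc17a7 rose with the intergenic percentage (0.18), as the rows did. It fell with the rRNA percentage (-0.039), where the rows rose in this model. The direction of the rows on the rRNA percentage hung on the scaling and the covariates. Slc17a7 was also lower in females (-0.084) and in rats of the other dissector (-0.075), where none of the rows passed. Of the nuclear-encoded subunits 2 of 17 were higher, Ndufv1 (0.088 ± 0.022) and Uqcrc2 (0.11 ± 0.029), and 1 was lower, Cox8a (-0.12 ± 0.027).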

How the data were processed

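The values deposited by the authors are raw counts of reads for each gene. Reads had been aligned to the rat genome Rnor6 with STAR 2.7.3a, and those with a unique place and matching strand were counted with Subread 2.0.0. From these counts, CPM and shares of all counts were computed for the 245 rats that carried no failed quality control label. Genes detected (1 read or more) in 25% of rats were scaled by TMM and fitted with limma-voom (R 4.3.3, limma 3.58.1, edgeR 4.0.16). The model held LocoScore, sex, rRNA and intergenic percentages, dissector, PavCA experience and batch, to which other variables were added singly. Another behavioral score took the place of LocoScore. P-values were adjusted by Benjamini-Hochberg over all 19448 genes, and an FDR below 0.10 was called. The fits were tried on simulated counts for sex, LocoScore and family only. Those counts held no effects of the RNA percentages, dissector or batch, so they do not test the fits under such effects.

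The members and the lists were chosen with earlier results of these data known. Named genes were the 10 members, the 2 genes most and the 2 least correlated with their mean, and from the nuclear-encoded subunits (17 of 83 matched) the 2 of smallest p in each direction where members passed. Of the cell type markers 1 of 19 was matched. Alternatives covered scaling, filters, edgeR, DESeq2 1.42.0, covariates, each sex and each batch. In the EPM distance fit 1 rat above 5000 cm was left out. The labels name 1 library per rat from separate animals, and at these depths the lowest row held at least 1294 reads, so counting error was small beside the spread between rats.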

Additional observations from a re-analysis of the deposited data

How the results depend on the processing

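All 10 rows rose with the intergenic percentage under every alternative run but batch 3 alone, where 9 did, and for the 5 behavioral scores 0 rows passed under any alternative. The other counts of rows passed moved as follows, and the cause was not tested. Without the intergenic percentage the count was 9 for sex, 9 for dissector, 9 for RIN, 9 for RNA concentration and 0 for PavCA experience. For PavCA experience it was 1 with DESeq2 size factors, 5 with total counts only, 5 with total counts without the members, 5 with family added, 1 in males, 0 in females, 0, 0 and 1 in the batches, 1 by the DESeq2 Wald test and 0 on shared dates of death. For the rRNA percentage it was 3 with total counts only, 1 with total counts without the members and 6 in batch 2. For dissector it was 1 under total counts only, total counts without the members, the 1 CPM filter, family added, batch 1 and the DESeq2 Wald test. For batch it was 6 with dissection day added, for family 3 in females, 1 in batch 2 and 0 in batch 3, for RIN 1, 0 and 3 in the batches, and for RNA concentration 1, 1 and 2. Of the reads that passed the sequencing filter, the rows took a median of 2.66%. The fits on shared dates, without families 6, 7 and 9 and without the rats of extreme RIN were chosen after seeing the data.

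Signs turned for rows among ENSRNOG00000034234 (Mt-co1), ENSRNOG00000030371 (Mt-co2), ENSRNOG00000030700 (Mt-co3), ENSRNOG00000031979 (Mt-atp6), ENSRNOG00000031766 (Mt-cyb), ENSRNOG00000030644 (Mt-nd1), ENSRNOG00000031033 (Mt-nd2), ENSRNOG00000029707 (Mt-nd4) and ENSRNOG00000029971 (Mt-nd5). With total counts only, the rRNA slope was -0.00071 for Mt-co2, -0.0020 for Mt-co3, -0.0022 for Mt-cyb, -0.0061 for Mt-nd1, -0.0038 for Mt-nd2, -0.0067 for Mt-nd4 and -0.0061 for Mt-nd5. With total counts without the members it was -0.00035 for Mt-co2, -0.0017 for Mt-co3, -0.0018 for Mt-cyb, -0.0057 for Mt-nd1, -0.0034 for Mt-nd2, -0.0063 for Mt-nd4 and -0.0058 for Mt-nd5. Without the intergenic percentage it was -0.034 for Mt-co1, -0.029 for Mt-co2, -0.032 for Mt-co3, -0.049 for Mt-atp6, -0.057 for Mt-cyb, -0.067 for Mt-nd1, -0.063 for Mt-nd2, -0.088 for Mt-nd4 and -0.086 for Mt-nd5, and -0.0030 for Mt-co2 in batch 3. Without that percentage the dissector difference was -0.11 for Mt-co1, -0.096 for Mt-co2, -0.097 for Mt-co3, -0.14 for Mt-cyb, -0.15 for Mt-nd1, -0.17 for Mt-nd2 and -0.21 for Mt-nd5, the RIN slope was 0.29 for Mt-co1, 0.10 for Mt-co2, 0.12 for Mt-co3, 0.28 for Mt-atp6, 0.40 for Mt-cyb and 0.43 for Mt-nd2, the slope on RNA concentration was 0.090 for Mt-co1, 0.15 for Mt-cyb, 0.16 for Mt-nd1, 0.20 for Mt-nd4 and 0.19 for Mt-nd5, and the sex difference was 0.076 for Mt-co3 and 0.15 for Mt-nd5. With sex as the only covariate the PavCA experience difference was 0.13 for Mt-co1, 0.064 for Mt-co3, 0.12 for Mt-atp6, 0.18 for Mt-cyb and 0.19 for Mt-nd1, and it was 0.035 for Mt-atp6 in batch 1 and 0.10 for Mt-co3 and 0.015 for Mt-atp6 in batch 2. The RIN slope was -0.16 for Mt-nd1 in males and -0.13 for Mt-nd4 and -0.048 for Mt-nd5 in batch 2, and the slope on RNA concentration was 0.097 for Mt-co1 in batch 3. No paired analysis was possible because each rat gave 1 library and the replicate numbers only count rats within a group. Depth limits none of the rows, each of which held at least 1294 reads per library, whereas uniquely placed reads, the rebuilt intergenic percentage and batches read from library numbers do limit what the values mean.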

Other observations

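The 5 libraries labelled as having failed quality control entered no comparison. The 10 rows took 2.12%, 2.38%, 2.53%, 2.95% and 4.34% of their counts, all within the range of the 245 libraries analyzed, which ran from 1.75% to 6.43%. Their intergenic percentages were between 10.5% and 14.8%, with a median of 11.7%.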
